A study of Mus musculus with 6 samples.

Results

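A set of 10 genes of the BCL2 family was examined in maps of Arid3a occupancy in mouse vascular smooth muscle cells: Bcl2, Bcl2l1, Bcl2l2, Mcl1, Bax, Bak1, Bid, Bad, Bcl2l11 and Bmf. Every peak that overlapped one of the gene bodies, or the 10 kb on either side, was taken from the 6 deposited peak lists (mm10). Peaks of different libraries that shared at least 1 bp were joined into 1 region. This gave 67 regions, from 311 peaks that overlapped the windows, out of 79295 regions and 293338 peaks in the whole data set. The 10 windows covered 570.37 kb, and all 10 genes are among 21887 protein-coding genes of the annotation.

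Occupancy was measured by CUT&Tag, in which an antibody directs a transposase to cut and tag DNA next to the bound protein. The antibody was against Arid3a, a DNA-binding protein of the ARID family that prefers A/T-rich sequence. All 6 libraries came from primary mouse vascular smooth muscle cells, 10000 cells per reaction according to the labels' protocols: 3 negative-control libraries (NC 1, 2 and 3) and 3 in which an siRNA against Arid3a had been transfected (siRNA 1, 2 and 3, a different siRNA in each). The protocols describe transfection for 24 h and angiotensin II for 36 h as a cell model of abdominal aortic aneurysm, without saying for each library whether angiotensin II was given. The labels give neither genotype, strain nor age, and do not say whether the libraries are separate cultures. The spread behind each p-value may therefore be technical only in the NC group. In the siRNA group it also holds any difference between the siRNAs. There siRNA and library cannot be told apart, so leaving out a library also leaves out its siRNA. The lists hold no measure of Arid3a itself, so the knockdown could not be checked, and no library made without the antibody was analysed here.

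The peak names inside all 6 lists carry the other group's name with the same replicate number. Libraries are grouped by their labels throughout, and every direction below would turn round if the peak names were the correct ones. The lists held 43834 to 51682 peaks. The most common background solved from the peaks was 0.621 to 0.673 fragments in the NC libraries and 0.475 to 0.538 in the siRNA libraries, and the mean peak width was 549 to 573 bp and 467 to 514 bp. Whether these differences in depth and width bear on the counts below was not tested. Of fixed marker lists, 7 of 8 smooth muscle genes had a region with a peak in all 6 libraries, as did 3 of 5 endothelial, 2 of 5 leukocyte and 4 of 4 fibroblast genes and 62.4% of all protein-coding genes. Peak lists do not measure RNA, so cell identity was not tested by them.

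BCL2 proteins govern the mitochondrial route of programmed cell death. Bax and Bak1 form pores in the outer mitochondrial membrane and release cytochrome c. Bcl2, Bcl2l1 (BCL-XL), Bcl2l2 (BCL-W) and Mcl1 hold them in check, and the BH3-only proteins Bid, Bad, Bcl2l11 (BIM) and Bmf counter the guardians or engage the pore formers directly. Loss of vascular smooth muscle cells by apoptosis is a known feature of the aneurysmal aortic wall.

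The start sites were where the members most often had a peak in all 6 libraries, so the sequences before them are shown first. RefSeq (GRCm38.p6, whose chromosome coordinates are those of mm10) lists 16 start-site windows for the 10 genes, each running from 250 bases before to 50 after a start. The 250 bases before the start are printed 5′ to 3′ for the 5 members whose window met a region with a peak in all 6 libraries and whose weakest peak there ranked highest in its list. A sixth, from Bmf, is shown because its region had a peak in the siRNA libraries only, and was added after that was seen. Capitals mark runs of 5 or more A or T bases, a marking chosen after the motif search described below had been seen.
Bcl2l11 (chr2:128125788-128126037, plus strand): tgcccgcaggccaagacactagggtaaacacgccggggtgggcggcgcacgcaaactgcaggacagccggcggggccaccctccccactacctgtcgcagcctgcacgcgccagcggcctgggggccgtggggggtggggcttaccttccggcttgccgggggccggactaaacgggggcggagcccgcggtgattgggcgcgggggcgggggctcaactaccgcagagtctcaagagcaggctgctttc
Bid (chr6:120916825-120917074, minus strand): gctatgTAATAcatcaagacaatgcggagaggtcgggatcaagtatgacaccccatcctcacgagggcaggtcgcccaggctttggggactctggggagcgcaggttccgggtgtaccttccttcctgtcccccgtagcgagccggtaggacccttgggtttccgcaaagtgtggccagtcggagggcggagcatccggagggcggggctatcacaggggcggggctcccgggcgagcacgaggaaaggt
Bcl2l2 (chr14:54883175-54883424, plus strand): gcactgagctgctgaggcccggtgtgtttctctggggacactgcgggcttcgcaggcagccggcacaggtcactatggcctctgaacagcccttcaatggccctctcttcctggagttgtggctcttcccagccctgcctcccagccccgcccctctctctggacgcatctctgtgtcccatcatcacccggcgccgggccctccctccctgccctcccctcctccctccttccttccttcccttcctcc
Bcl2l1 (chr2:152830718-152830967, minus strand): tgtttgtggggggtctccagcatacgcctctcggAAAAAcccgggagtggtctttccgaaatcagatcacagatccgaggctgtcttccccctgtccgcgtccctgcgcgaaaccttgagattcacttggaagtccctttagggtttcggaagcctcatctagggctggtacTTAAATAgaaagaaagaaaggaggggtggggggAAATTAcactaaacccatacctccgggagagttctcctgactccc
Mcl1 (chr3:95658471-95658720, plus strand): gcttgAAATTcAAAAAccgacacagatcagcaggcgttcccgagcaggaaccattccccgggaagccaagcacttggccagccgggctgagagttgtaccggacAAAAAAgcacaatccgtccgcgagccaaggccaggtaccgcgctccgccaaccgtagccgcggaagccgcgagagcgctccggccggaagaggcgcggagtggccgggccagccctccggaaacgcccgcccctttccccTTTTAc
Bmf (chr2:118547600-118547849, minus strand): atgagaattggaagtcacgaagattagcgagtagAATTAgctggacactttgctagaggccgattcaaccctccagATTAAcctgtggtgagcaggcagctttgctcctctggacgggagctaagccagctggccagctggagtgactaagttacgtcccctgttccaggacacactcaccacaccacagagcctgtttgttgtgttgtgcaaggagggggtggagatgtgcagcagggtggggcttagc

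The printed sequences were GC-rich, between 53.2% (Bcl2l1) and 72% (Bcl2l11) G and C. Runs of A or T numbered 4 before the Mcl1 start, 3 before that of Bcl2l1, 2 before that of Bmf and 1 before that of Bid, and there was none before the Bcl2l11 and Bcl2l2 starts. Over the full 300-base windows, 12 of the 16 held such a run (75%), against 80.9% of the 21263 windows of protein-coding genes. Median G and C content was 61% in the 16 windows and 56.3% in all. The letters ATTAAA and ATCAAA, searched on both strands as forms of an A/T-rich ARID core, were found in 0 of the 16 windows and in 19.3% of all. A missing match says only that these letters are not in these 300 bases.

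The regions at the 10 genes were mostly shared between libraries. Of the 67, 38 had a peak in all 6 libraries (56.7%, against 37.3% of all regions), and 10 were seen in 1 library only (14.9%, against 30.2%). Single libraries held 50, 53 and 49 of the regions in the NC group and 49, 52 and 48 in the siRNA group, and every library had at least 1 region at each of the 10 genes. These ranges overlapped: the means were 50.7 ± 2.08 (SD, n = 3) and 49.7 ± 2.08 (SD, n = 3), and a two-sided exact permutation test gave p = 0.6, where the smallest p that 3 against 3 allows is 0.1. The difference of -1 region turned to 0.167 without NC 2.

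**Figure D1:**
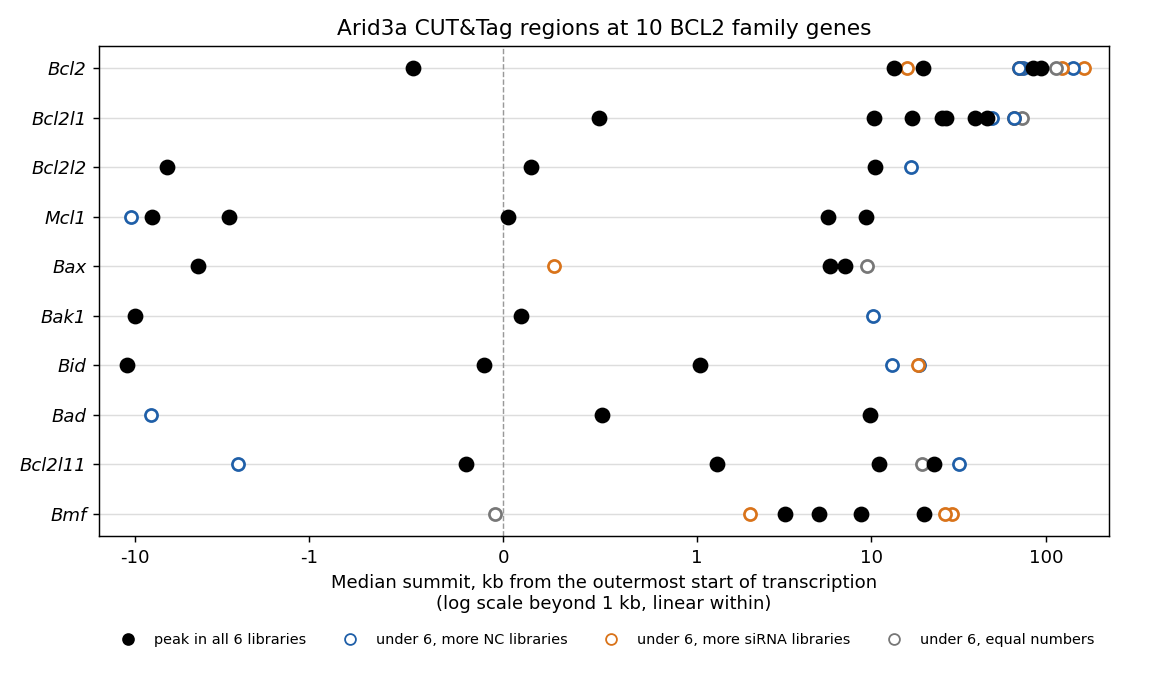
Position of the 67 Arid3a regions at 10 BCL2 family genes. The x axis gives the median summit in kb from the outermost start of transcription in the RefSeq table (negative is upstream, linear within 1 kb and logarithmic beyond), each line is 1 gene, filled points are the 38 regions with a peak in all 6 libraries, and open points are regions with fewer, coloured by the group with more libraries. A filled point lies near the start of every gene except Bax and Bmf, whose first starts carry open points.

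Start sites had the largest share of regions seen in all 6 libraries, called constant from here on. In 9 of the 10 genes at least 1 start-site window overlapped a region with a peak in all 6 libraries, against 44.2% of the 17492 protein-coding genes with a window. Bax was the exception, with 2 NC and 3 siRNA libraries. By place, 10 of 13 regions over a start-site window had a peak in all 6 libraries, as did 17 of 35 elsewhere in the gene bodies, 6 of 9 in the upstream flanks and 5 of 10 in the downstream flanks. Peaks were ranked within each list by the −log10 q value that the authors' peak caller gave, and a region's strength was taken as its lowest percentile over the 6 libraries. The median of that percentile was 81.8 at start sites, 41.5 in gene bodies, 77.0 upstream and 83.7 downstream. The fold enrichment and −log10 q of a peak are the authors' own values. The −log10 q is used here to describe and rank peaks within their list, and the fold with its p-value also gives the summit fragments described below.

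The median density of constant regions was 7.22 per 100 kb of window for the members and 1.94 for all protein-coding genes. Not all of it belongs to the members alone: 10 of the 67 regions lay in another protein-coding gene, 5 of them over that gene's own start-site window.

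**Figure D2:**
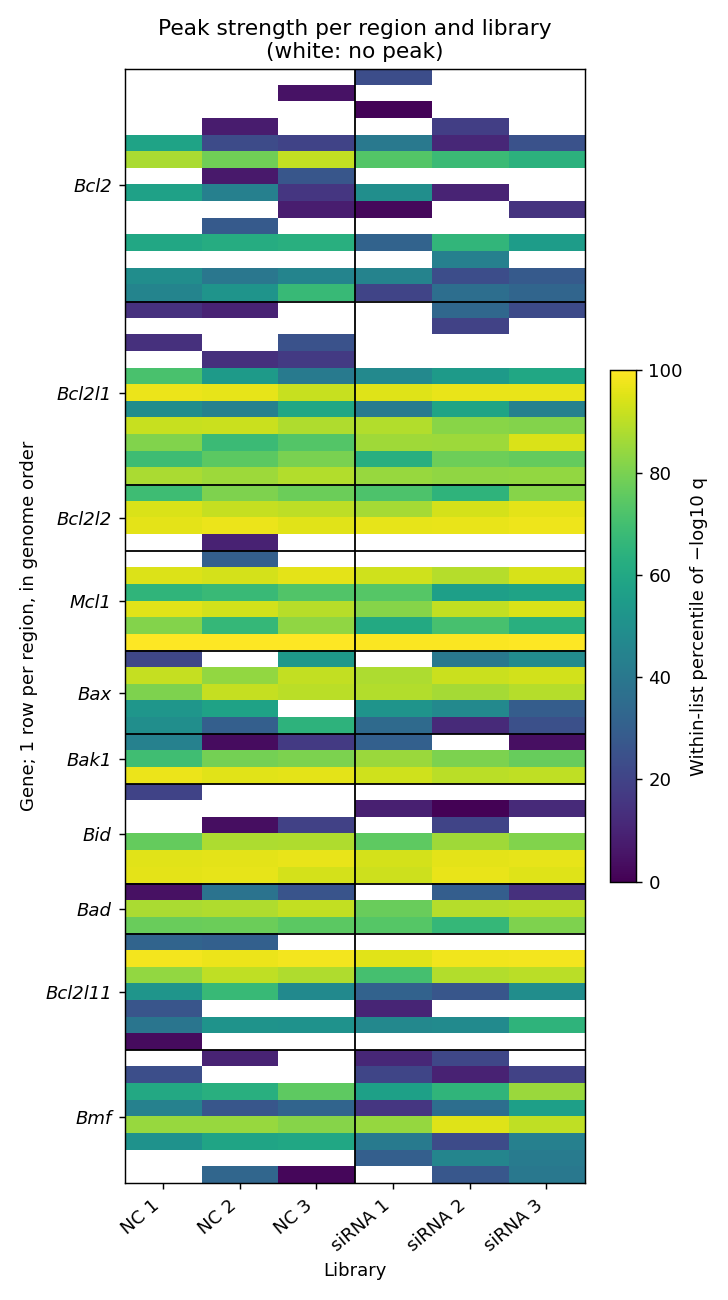
Strength of each region in each library. Rows are the 67 regions in genome order within 10 genes, columns are the 3 NC and 3 siRNA libraries, colour is the percentile of −log10 q within that library's list, and white means no peak. Regions in fewer than 6 libraries are dark, with no peak above the percentile 57.5.

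The regions that came and went were the weak ones. This follows in part from the measures, since presence in a list and the percentile both rest on the −log10 q value. With the strongest peak of a library standing for it at each region, the 73 values at the 29 regions with fewer than 6 libraries had a median percentile of 20.9, between 0.676 and 57.5, whereas the 228 values at the constant regions had a median of 80.9. Of the 29, 14 had more NC libraries, 10 more siRNA libraries and 5 equal numbers. Among the 10 regions in a single library, 6 were in an NC library and 4 in an siRNA library. The same splits over all regions are not given, so no lean of the family towards a group can be read from these counts.

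To compare heights, the number of fragments at each summit was solved from the fold and p-value of its peak, and counts were scaled between libraries by their median ratio over the 29602 regions with a peak in all 6. The scaling factors were 1.06 to 1.16 in the NC libraries and 0.824 to 0.986 in the siRNA libraries. Raw counts below are not corrected for this difference, and the share of all regions whose raw counts separated is not given. Summits of the 6 libraries lay within 100 bp at 15 of the 38 family regions, so some compared heights come from different places. Of the 29602 regions limma called 37 lower in the siRNA libraries (0.125%) and 27 higher (0.0912%) at an adjusted p under 0.05. None of the 38 family regions was called in either direction, and their lowest adjusted p (limma) was 0.0711. Without siRNA 1 the regions tested were 31633, of which 39 were in the family. Of these limma called 221 lower and 160 higher, among them 3 and 1 of the family. Scaling libraries by background moved the split over all regions to 8 lower and 70 higher, with 1 family region higher. At an unadjusted p under 0.05, 4 family regions were lower (all regions 5.9%) and 2 higher (all regions 5.42%). The estimates at the family regions ran from -0.61 to 0.67 on the log2 scale, with a median of -0.13 and 26 of 38 below 0, beside a median of -0.00088 and 14845 of 29602 below 0 for all regions. With background scaling all regions moved up, to a median of 0.094, with 9955 of 29602 below 0. The family regions moved to a median of -0.03, with 22 of the 38 below 0. The median half-width of a family region's unadjusted 95% interval was 0.29. In such bulk libraries fewer cells with Arid3a bound and less Arid3a per cell cannot be told apart.

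Complete separation of the groups was uncommon. After scaling, all 3 NC libraries lay above all 3 siRNA libraries at 5 of the 38 regions (8.12% of all regions), and the reverse held at 2 (7.72% of all).

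**Figure D3:**
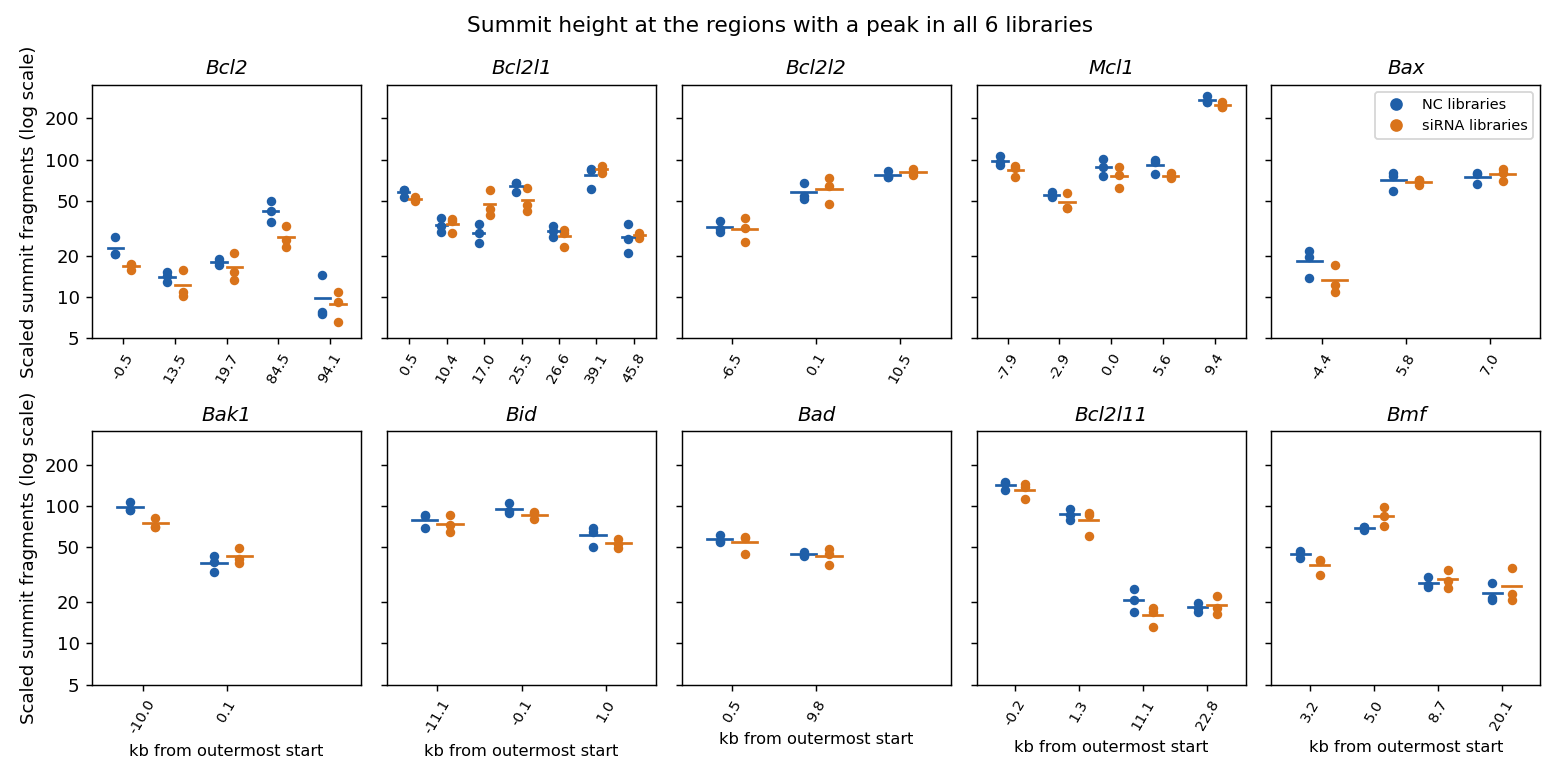
Scaled summit fragments (logarithmic axis) in each of the 6 libraries at the 38 regions with a peak in all 6. Each panel is 1 gene, positions along its x axis are regions labelled by kb from the outermost start, points are libraries and bars are group means. The groups overlap at most regions, and the tallest region lies 9.4 kb beyond the Mcl1 start.

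**Figure D4:**
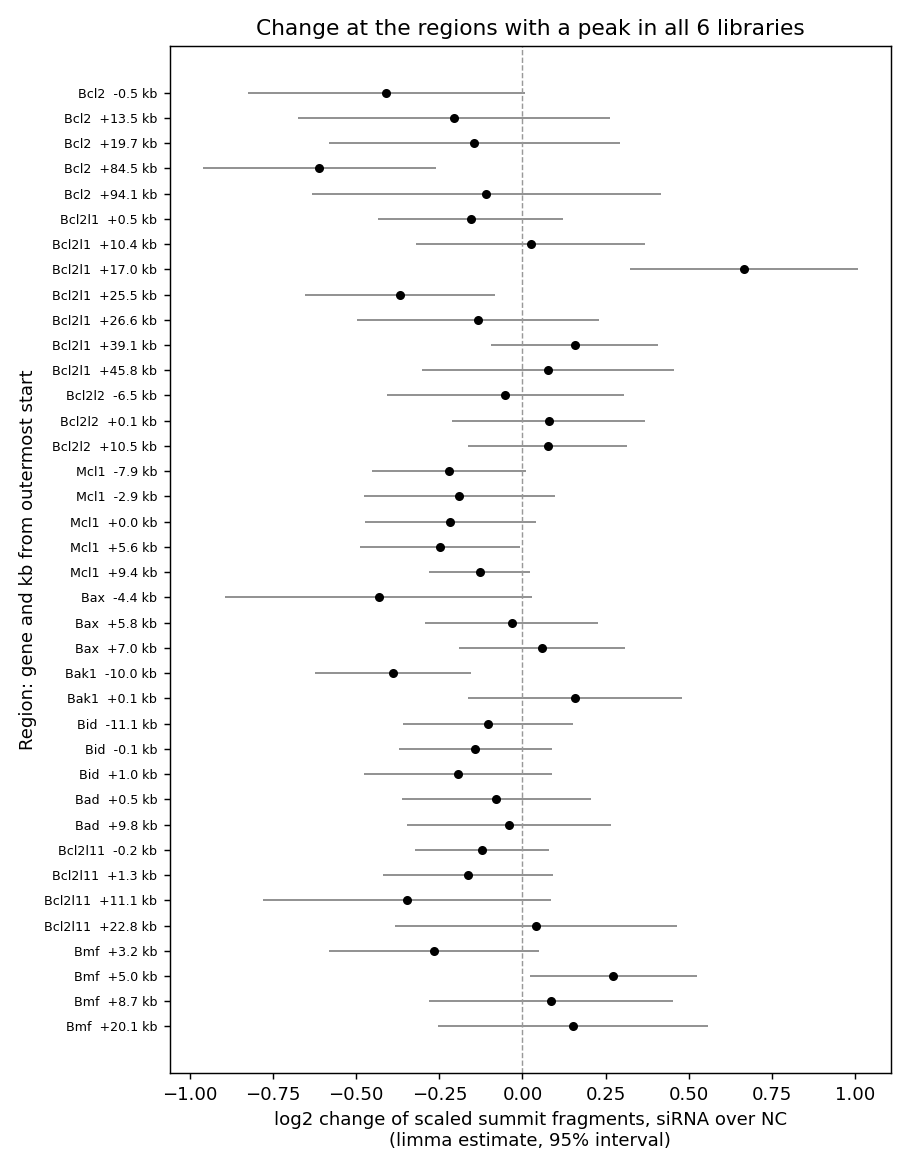
Change in summit height between the groups at the same 38 regions. The x axis is the limma estimate of log2 scaled summit fragments, siRNA over NC, with its 95% interval, and each line is 1 region labelled by gene and kb from the outermost start. The estimates run from -0.61 at Bcl2 to 0.67 at Bcl2l1, and no region passed the adjusted threshold.

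The 4 guardians of survival held 35 regions, 20 of them in all 6 libraries. Bcl2, the founding member, is by far the longest gene and had 14 regions, 5 of them constant. The region at its start (chr1:106713981-106715315, median summit 464 bp upstream) was weak: its summits held 23, 24 and 29 fragments in the NC libraries and 13, 16 and 17 in the siRNA libraries. They were spread over 547 bp, so the heights are not those of a single site. All NC counts lay above all siRNA counts, before and after scaling. The scaled difference was -0.41 on the log2 scale (95% interval -0.83 to 0.01, limma adjusted p = 0.451).

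The strongest Bcl2 region lay inside the gene, 84.5 kb from the start (chr1:106628934-106630418). Its summits held 47, 41 and 53 fragments in the NC libraries and 27, 24 and 23 in the siRNA libraries. Every NC library was above every siRNA library, also after scaling, with means of 42.5 ± 7.41 and 27.4 ± 4.84 scaled fragments (SD, n = 3 each). This was the lowest estimate at any of the 10 genes, -0.61 (95% interval -0.96 to -0.26), and it did not pass the threshold (limma adjusted p = 0.116). Without siRNA library 1 it was -0.74 and did pass (limma adjusted p = 0.0202). Leaving out any other library gave estimates from -0.74 (without NC 2, adjusted p = 0.171) to -0.49 (without NC 3, adjusted p = 0.437), none of them called. All 5 constant Bcl2 regions had estimates below 0, from -0.61 to -0.11 (-0.52 to -0.02 with background scaling). One weak region, 73.6 kb into the gene, had a peak in NC 2 and NC 3 (10 and 12 fragments) and in no siRNA library.

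Bcl2l1 encodes the guardian BCL-XL and had 11 regions, the largest number in all 6 libraries of any of the 10 genes (7). Over its upstream starts (chr2:152830566-152831735) the summits, spread over 649 bp, held 67, 62 and 64 fragments in the NC libraries and 44, 46 and 51 in the siRNA libraries. The raw counts separated, but after scaling the groups overlapped and the difference was -0.16 (95% interval -0.43 to 0.12, limma adjusted p = 0.722).

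The strongest Bcl2l1 region lay 39.1 kb inside the gene (chr2:152792402-152793145), with 96, 98 and 65 fragments in the NC libraries and 66, 83 and 84 in the siRNA libraries. Here the groups overlapped in raw and in scaled counts, and NC 3 was the lowest of all. The difference was 0.16 (95% interval -0.09 to 0.41, limma adjusted p = 0.683).

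A pair of neighbouring regions in the Bcl2l1 gene body differed in opposite directions. They fell outside the naming rule and were chosen after their values were seen. At 17.0 kb (chr2:152814462-152814874) the summits held 38, 29 and 31 fragments in NC and 36, 36 and 59 in siRNA. After scaling every siRNA library lay above every NC library, with siRNA 3 the highest, and the estimate of 0.67 (95% interval 0.32 to 1.01) was the largest at any member. It missed the threshold (limma adjusted p = 0.0711). The call was made with background scaling (adjusted p = 0.0402) and without siRNA library 1 (adjusted p = 0.0253). Leaving out any other library gave estimates from 0.49 (without siRNA 3, adjusted p = 0.319) to 0.79 (without siRNA 2, adjusted p = 0.0748), none of them called. At 25.5 kb (chr2:152805783-152806701) the counts were 76, 79 and 62 in NC and 51, 43 and 42 in siRNA, where scaled siRNA 1 overlapped the NC range. The estimate was -0.37 (95% interval -0.65 to -0.08, limma adjusted p = 0.286), and without siRNA library 1 it was -0.52 (adjusted p = 0.0451). Leaving out any other library gave adjusted p-values from 0.371 to 0.582.

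A pair of further Bcl2l1 regions, at 48.9 and 65.3 kb, had peaks in 2 NC libraries and in no siRNA library. The first held 18 and 15 fragments (NC 2 and 3) and the second 12 and 12 (NC 1 and 3), at percentiles between 13.9 and 25.2 of their lists.

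Bcl2l2 encodes BCL-W, and 3 of its 4 regions were constant. At its start (chr14:54883051-54884015, median summit 142 bp downstream) the summits held 75, 63 and 55 fragments in NC and 39, 59 and 72 in siRNA. The groups overlapped, and siRNA 1 was the lowest library. The difference was 0.08 (95% interval -0.21 to 0.37, limma adjusted p = 0.894). The strongest region of this window, 10.5 kb past the Bcl2l2 start (chr14:54893543-54894491), lies over the start of the neighbouring gene Pabpn1, which encodes a nuclear poly(A)-binding protein. It held 84, 97 and 79 fragments in NC and 64, 75 and 85 in siRNA, which overlapped. Its difference was also 0.08 (95% interval -0.16 to 0.32).

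Mcl1, a guardian whose protein turns over quickly, carried the tallest peaks of all 10 genes. The region 9.4 kb past its start and beyond the gene end (chr3:95667447-95668494) held 293, 338 and 281 fragments in NC and 200, 220 and 261 in siRNA. It stood at percentiles from 99.5 to 99.8 of the lists, over a high local background of 21.6 to 31.1 fragments. The raw counts separated, the scaled counts overlapped, and the difference was -0.13 (95% interval -0.28 to 0.02, limma adjusted p = 0.54). The nearest other protein-coding gene, Adamtsl4, lay 7707 bp away.

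At the Mcl1 start (chr3:95658412-95659041) the 6 summits fell within 3 bp of each other, 28 bp past the start. They held 113, 103 and 80 fragments in NC and 51, 71 and 88 in siRNA, which overlapped. The difference was -0.22 (95% interval -0.47 to 0.04, limma adjusted p = 0.539). The Mcl1 estimates at all 5 constant regions lay below 0, from -0.25 to -0.13 (-0.15 to -0.03 with background scaling). One weak upstream region at -10.4 kb was seen in NC 2 only, with 35 fragments.

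The pore formers Bax and Bak1 had 8 regions, 5 of them constant. At the Bax start (chr7:45466344-45466977, median summit 265 bp downstream) NC 1 and NC 2 held 24 and 25 fragments, NC 3 had no peak, and the siRNA libraries held 19, 17 and 14. The peaks ranked at percentiles from 29.6 to 57.5, and Bax was the only one of the 10 genes with no constant region over any start. The strongest region in the Bax window (chr7:45459578-45460287) lies 7.0 kb past that start, over the start of Ftl1, which encodes the ferritin light chain. It held 90, 77 and 84 fragments in NC and 58, 73 and 84 in siRNA, which overlapped (difference 0.06, 95% interval -0.19 to 0.31).

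Bak1 shares its start with Ggnbp1: the region there (chr17:27027439-27029037) overlapped the start-site windows of both. Its summits held 37, 46 and 46 fragments in NC and 41, 38 and 38 in siRNA. The groups overlapped and the difference was 0.16 (95% interval -0.16 to 0.48, limma adjusted p = 0.768).

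The strongest Bak1 region lay 9976 bp upstream of the start (chr17:27038114-27039589), and reached across the edge of the 10 kb window. Its summits held 119, 109 and 100 fragments in NC and 68, 65 and 70 in siRNA. Every NC library was above every siRNA library before and after scaling, with scaled means of 98.2 ± 7.33 and 74.9 ± 6.66 (SD, n = 3 each). The difference was -0.39 (95% interval -0.62 to -0.15) and did not pass the threshold (limma adjusted p = 0.139). Without siRNA library 1 it was -0.46 and passed (limma adjusted p = 0.0313). Leaving out any other library gave estimates from -0.42 to -0.33 and adjusted p-values from 0.271 to 0.498. The upstream and the start region of Bak1 thus had estimates of opposite sign, a difference that was not tested.

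The 4 BH3-only genes held 24 regions, 13 of them constant. Bcl2l11 encodes BIM, a potent activator. By the percentile of −log10 q its start carried the strongest start-site signal of the family (chr2:128125485-128126260, median summit 192 bp upstream, inside the 250 bases printed above). Fold enrichment there was 7.23 to 8.55, over a local background of 11.9 to 20.4 fragments. It was higher at the starts of Bcl2l2 (9.03 to 13.5) and Bid (8.59 to 10.8). The Bcl2l11 summits held 167, 154 and 156 fragments in NC and 93, 127 and 142 in siRNA. The raw counts separated, the scaled ones overlapped, and siRNA 1 was the lowest library in both. The difference was -0.12 (95% interval -0.32 to 0.08, limma adjusted p = 0.695). This region also lies within the annotated span of the neighbouring gene Acoxl. A second weak region of Bcl2l11, at -2.5 kb, had peaks in NC 1 and NC 2 (50 and 51 fragments over a local background of 19.7 and 20.5) and in no siRNA library.

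Bid, whose protein links death receptors to mitochondria, had its strongest region at its start (chr6:120916312-120917146). The 6 summits lay within 1 bp, 99 bp upstream of the start and inside the printed sequence. They held 100, 108 and 111 fragments in NC and 66, 81 and 90 in siRNA. The raw counts separated, the scaled counts overlapped, and the difference was -0.14 (95% interval -0.37 to 0.09, limma adjusted p = 0.689).

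A region 18.4 kb into Bid (chr6:120898352-120898583) had a peak in all 3 siRNA libraries and in no NC library. The peaks were among the weakest of their lists, with 7, 5 and 8 fragments and percentiles of 8.93, 0.676 and 12.1. NC 1 had a peak of 10 fragments less than 100 bp away (chr6:120897948-120898256). A constant region upstream of Bid ran across the edge of the window: within the window its fold enrichment was 3.39 to 4.72 in 5 libraries, and its tall summit lay beyond the edge, in a peak that in NC 1 covered both. That outer summit stood for the region in every library. Its fold enrichment (9.51 to 12.3), percentiles (92.5 to 96.6) and limma estimate (-0.10) thus enter the family values, although the summit lay outside the window.

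Bad had 3 regions, 2 of them constant. The one at its starts (chr19:6941237-6942854) is shared with Gpr137, whose start-site window it also overlapped, and its 6 summits all fell in the window of the second Bad start. They held 61, 65 and 65 fragments in NC and 37, 54 and 59 in siRNA. The raw counts separated, with siRNA 1 the lowest, and the scaled difference was -0.08 (95% interval -0.36 to 0.20, limma adjusted p = 0.891).

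Bmf, which responds to loss of cell attachment, has 3 listed starts that differed in their peaks. The outermost start (chr2:118549613-118550031) had a peak in NC 2 and NC 3 (35 and 25 fragments) and in siRNA 2 and siRNA 3 (26 and 33). The start 5.0 kb further on (chr2:118544414-118544932) had a peak in all 6 libraries. By percentile it was the strongest region of the gene, with 79, 82 and 71 fragments in NC and 59, 90 and 83 in siRNA. After scaling every siRNA library lay above every NC library, siRNA 1 by little. The scaled means were 69.4 ± 2.09 and 84.7 ± 13.4 (SD, n = 3 each), and the difference was 0.27 (95% interval 0.02 to 0.52, limma adjusted p = 0.394).

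Between these starts, over the second start of Bmf, lay the clearest difference in presence at the 10 genes (chr2:118547528-118547937, median summit 65 bp upstream of that start). The siRNA libraries held 30, 35 and 39 fragments there, at percentiles of 30.2, 45.5 and 41.5, and no NC library had a peak. A library with no peak has no value in its list, so the size of this difference cannot be given. One more weak Bmf region, 26.4 kb past the first start, had a peak in NC 1 (11 fragments) and in all 3 siRNA libraries (9, 8 and 9).

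Across the 67 regions, 2 had a peak in all siRNA libraries and in no NC library (the regions of Bid and Bmf, against 0.342% of all regions), and 0 had the reverse (0.608% of all regions). Without NC 1, where fewer NC libraries decide, the reverse held at 2 regions and 3 regions were siRNA-only. At a −log10 q of at least 5 no siRNA-only region was left. The Bmf region missed that cut through siRNA 1 alone (4.998), as siRNA 2 and siRNA 3 had 7.25 and 6.67. The shares of all regions under these settings are not given. A margin of at least 2 libraries in favour of NC was found at 4 regions (5.03% of all regions), in Bcl2, Bcl2l1 (2 regions) and Bcl2l11. The same margin in favour of siRNA was found at 3 (3.43% of all regions), 1 in Bid and 2 in Bmf. The numbers of members are too small to read an order of the groups from these shares.

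The bases covered by peaks in the windows were 35390, 35642 and 34467 in the NC libraries and 30689, 30223 and 33396 in the siRNA libraries. The groups did not overlap, with means of 35166 ± 619 and 31436 ± 1713 bp (SD, n = 3 each) and a ratio of 1.12, and the two-sided exact permutation test gave p = 0.1, the smallest it can give. Over all peaks the covered length was 27.5 ± 0.171 and 23.8 ± 1.47 Mb (SD, n = 3 each), a ratio of 1.16 with the same p. The difference at the family thus went with one of similar size over the whole lists, whose part in it was not tested.

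By role, 14 of the 20 constant regions of the guardians had an estimate below 0 (median -0.14), as did 3 of 5 of the pore formers (median -0.03) and 9 of 13 of the BH3-only genes (median -0.10). With background scaling these became 13 of 20 (median -0.04), 2 of 5 (median 0.06) and 7 of 13 (median -0.0055), so the sign of the pore formers' median turned. Of all regions, 14845 of 29602 lay below 0 in the main fit (median -0.00088). With background scaling 9955 of 29602 did (median 0.094). The median of each role lay below that of all regions in both fits. The roles were not tested against each other or against all regions.

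A pair of lists of related genes were set beside the 10. Of 16 further BCL2 relatives, 12 had a region with a peak in all 6 libraries (75%), and 6 of the 12 with a start-site window had one there (50%). The same shares over all protein-coding genes were 62.4% and 44.2%, and the differences from them were not tested. Bnip3 and Bnip3l, mitophagy receptors, each had 3 constant regions, as did Bok, a relative of Bax, and Bbc3, which encodes the BH3-only protein PUMA. Bcl2a1a had no region in any library, and Bcl2a1b, Bcl2l14 and Hrk had none in all 6. Of 16 genes of the steps at and after the mitochondrial pore, all 16 had a constant region, and all 11 with a start-site window had one there. They include Apaf1, the scaffold of the apoptosome, with 2 constant regions, Casp9, the protease it activates, with 2, and Cycs, which encodes cytochrome c, with 1. Bcl2l13 neighbours Bid and shares part of its window.

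Regions also lay beyond the 10 kb limit, of which only the nearest on each side of a window was examined. The closest was a weak region 46 bp beyond the Bax window, with a peak in 2 siRNA libraries and no NC library. For Bcl2l11, Bcl2 and Mcl1 the nearest lay 1332, 1484 and 1693 bp beyond, and the one near Mcl1 had a peak in all 6 libraries, with fold enrichments of 5.33 to 6.09. A stronger region with a peak in all 6 libraries lay 3897 bp beyond the Bcl2l1 window, with fold enrichments of 11.5 to 14.8.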

How the data were processed

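Arid3a CUT&Tag peak lists of 6 libraries were used as deposited, 1 list per library, so peaks had not been pooled over replicates. Per the submitters' processing notes the authors used Bowtie2, Picard and MACS2 with mm10, and no versions, read filters or control libraries are given in the sources used here. The deposited lists give fold enrichment (a ratio) at the summit in column 7, −log10 p and −log10 q as the authors' caller wrote them in columns 8 and 9, and the summit's offset in column 10. The whole-library depth is not given.

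Summit fragments and local background were solved from fold and −log10 p under a Poisson model with a pseudocount of 1 (all peaks solved within a relative 0.0001). Peaks of the 6 libraries overlapping by at least 1 bp were merged, and the peak with the highest −log10 q stood for its library. This held also where that peak lay beyond the edge of a gene's window. limma 3.58.1 (R 4.3.3, trended variance) was fitted to log2(scaled summit fragments + 1) over all regions with a peak in all 6 libraries, with Benjamini-Hochberg adjustment and a threshold of 0.05. It was tested on simulated data with 200 changed regions. Counts and covered bases were compared by two-sided exact permutation over libraries (scipy 1.17.1). Genes and start sites came from RefSeq tables (GRCm38.p6), and all 10 members matched. The values of 1 gene of the pathway lists are not reported here.

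For each member the text names the region at the start, the one with the highest smallest percentile, those whose number of libraries differed by at least 2 between groups, and any past the limma threshold. The members and lists were chosen with earlier results of these data known. Replicate numbers were checked for pairing by correlation, which cannot tell whether the libraries are paired, and the 6 libraries were treated as separate. Alternatives were a stricter −log10 q of 5, merging within 100 bp, gene bodies only, equal peak numbers, background scaling, a pseudocount of 5, a replicate block, siRNA 2 and 3 as 1 sample, and leaving out each library.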

Additional observations from a re-analysis of the deposited data

How the results depend on the processing

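The 38 regions in all 6 libraries stayed between 27 (gene bodies alone) and 39, and the covered bases stayed lower in the siRNA libraries under every alternative run. Of the 38 log2 estimates, none past the threshold, 14 changed sign under some alternative, the largest of these being 0.16 in size. The 2 siRNA-only regions became 0 at a −log10 q of at least 5, where the Bmf region fell out through siRNA 1 alone (4.998). They became 1 with merging within 100 bp and 1 with equal peak numbers. When a library was left out, the siRNA-only regions numbered 2 to 3. The NC-only regions, 0 in the main run, then numbered 0 to 2. The difference in the number of regions, -1, was -3.33 (exact permutation p = 0.4) at a −log10 q of at least 5 and 0 in gene bodies alone and with equal peak numbers, and ran from -2.17 (without siRNA 2) to 0.167 (without NC 2) when a library was left out. limma called 37 of all 29602 regions lower and 27 higher, but 8 and 70 with background scaling. When 1 library was left out, 30232 to 31633 regions were tested, with 5 to 221 called lower and 5 to 160 higher. The upper ends were without siRNA 1. Among the family regions limma called 0 lower and 0 higher, 1 higher with background scaling, and, without siRNA 1, 3 lower and 1 higher.

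The deviations of same-numbered libraries had correlations of 0.042, 0.033 and -0.022, and those of the other pairs ran from -0.076 to 0.049. Whether same-numbered libraries share a culture or a day cannot be told from these values. With a replicate block limma called 83 of all regions lower and 63 higher, and 1 family region higher (Bcl2l1 at 17.0 kb, adjusted p = 0.0293). The block gave -1 for regions and -3730 bp for covered bases. Both had an exact sign-flip p of 0.25, the smallest that 3 pairs allow. The cause of these changes was not tested. With 3 libraries a group, weak peaks near the calling threshold limit what presence can show.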
